A study of Rattus norvegicus with 13 samples.

Results

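The ten-eleven translocation genes Tet1, Tet2 and Tet3, the DNA methyltransferase genes Dnmt1, Dnmt3a and Dnmt3b, and Uhrf1 were followed through bulk RNA of rat hearts. These 7 genes were taken by name from the tables of counts, which list 25600 names at 2 months and 38600 at 6 and 8 months, and all 7 are in each table. The family was chosen from results of these same comparisons. Its fold changes and calls are therefore given as descriptions, from a fit across all genes, and not as independent tests.

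Hearts labelled WT (genotype WT, treatment none) were compared with sonogenetic hearts, abbreviated ST. ST rats carried AAV2/9-cTnT-MscL-G22S-mCherry, an adeno-associated virus that uses the cardiac troponin T promoter, active in heart muscle cells, to express MscL-G22S, an altered stretch-gated channel of bacterial origin, and the red fluorescent reporter mCherry. The 2-month groups held 2 hearts each and the 6-month groups 3 each, and 3 ST hearts of 8 months had no WT group of their own month. The labels name neither the rats' strain nor a control virus, and do not say whether the months are an age or a time since the virus, or whether ultrasound was applied.

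Cytosine methylation in mammals falls mainly on CG dinucleotides. Dnmt3a and Dnmt3b encode the enzymes that place new methyl groups, while Dnmt1 encodes the enzyme that copies methylation onto the new strand after replication. Uhrf1 encodes the protein that recognises the half-methylated CG and brings Dnmt1 to it. The TET enzymes oxidise 5-methylcytosine to 5-hydroxymethylcytosine and further products, which base excision repair can replace with unmodified cytosine. Most muscle cells of the adult heart no longer divide.

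The CG dinucleotide that these proteins act on also lies in the start regions of their own genes. The windows of Tet1 and Tet2 are shown because the counts of Tet1 changed far more than those of Tet2. RefSeq (assembly GRCr8) gives 300-base windows, from 250 bases before a start to 50 after it, for 6 of the 7 genes; Dnmt3b was unmatched. Tet1 has 3 such windows, at chr20:25766556-25766855, chr20:25781119-25781418 and chr20:25781537-25781836, all on the plus strand, and Tet2 has 1, at chr2:224746137-224746436 on the minus strand. Each is printed 5′ to 3′ with every CG in capitals, a motif that reads the same on both strands.
Tet1 start 1: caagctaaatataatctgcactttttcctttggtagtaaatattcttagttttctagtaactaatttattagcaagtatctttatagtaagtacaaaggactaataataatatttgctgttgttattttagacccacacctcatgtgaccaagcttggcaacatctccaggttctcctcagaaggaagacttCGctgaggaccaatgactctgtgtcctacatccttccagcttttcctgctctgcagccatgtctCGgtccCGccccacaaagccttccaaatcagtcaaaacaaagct
Tet1 start 2: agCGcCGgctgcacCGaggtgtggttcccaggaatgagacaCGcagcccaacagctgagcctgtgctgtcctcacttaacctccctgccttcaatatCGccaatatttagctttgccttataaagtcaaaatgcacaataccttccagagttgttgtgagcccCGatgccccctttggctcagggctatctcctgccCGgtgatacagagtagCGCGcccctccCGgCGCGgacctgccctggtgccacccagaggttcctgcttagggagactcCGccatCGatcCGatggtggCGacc
Tet1 start 3: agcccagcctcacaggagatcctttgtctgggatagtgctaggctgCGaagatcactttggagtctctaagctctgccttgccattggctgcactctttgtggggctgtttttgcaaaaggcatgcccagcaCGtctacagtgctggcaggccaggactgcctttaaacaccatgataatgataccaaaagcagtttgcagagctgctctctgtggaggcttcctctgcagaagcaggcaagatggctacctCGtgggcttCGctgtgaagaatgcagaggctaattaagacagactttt
Tet2 start 1: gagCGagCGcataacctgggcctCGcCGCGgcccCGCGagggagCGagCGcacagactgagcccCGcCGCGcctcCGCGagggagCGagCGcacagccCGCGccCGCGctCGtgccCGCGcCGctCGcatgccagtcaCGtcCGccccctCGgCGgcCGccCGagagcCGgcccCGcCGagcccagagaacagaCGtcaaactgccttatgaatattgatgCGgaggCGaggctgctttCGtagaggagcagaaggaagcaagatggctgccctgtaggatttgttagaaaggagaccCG
The Tet1 windows hold 3, 16 and 4 CG, counts that 77.7%, 30.5% and 69.3% of all 33469 windows reach. The Tet2 window holds 39, which 3.76% of windows reach. The median window holds 7 CG, and 94.5% hold at least 1. Among the other members the windows hold 15, 23, 3 and 3 CG for Tet3, 17 for Dnmt1, 21 for Dnmt3a, and 8, 13 and 35 for Uhrf1. Counts per gene do not tell which start was used, and methylation was not measured in these libraries.

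The summed counts of a library were 6.54 to 11.3 M in the 2-month table, 6.72 to 8.49 M in the 6-month table and 4.70 to 5.57 M in the 8-month table. MscL-G22S had 0 counts in all WT libraries and from 11.0 to 11.2 CPM (counts per M counts) in ST hearts at 2 months, from 90.4 to 209 at 6 months and from 116 to 180 at 8 months. Levels below are CPM scaled by TMM, a scaling between libraries, within the 2-month table and jointly over the tables of 6 and 8 months, so levels at 2 months are not set against later ones. The 8-month libraries form a table of their own, and month and table cannot be told apart. Lengths of transcripts were not used, so levels are compared between groups and never between genes. In bulk tissue, fewer cells of a type and less RNA per cell cannot be told apart. The comparison at 6 months shares its ST libraries with ST 8 against ST 6 months and its WT libraries with ST 8 against WT 6 months.

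At 6 months Tet1, Tet2, Tet3, Dnmt1 and Dnmt3a were all lower in ST than in WT hearts, Tet1 by far the most. At 2 months none of the 7 genes passed the threshold. At 8 months Tet1 stood between the ST and WT levels of 6 months, while Dnmt3b and Uhrf1 stood above both. Those levels are plotted per heart for the 7 genes.

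**Figure D1:**
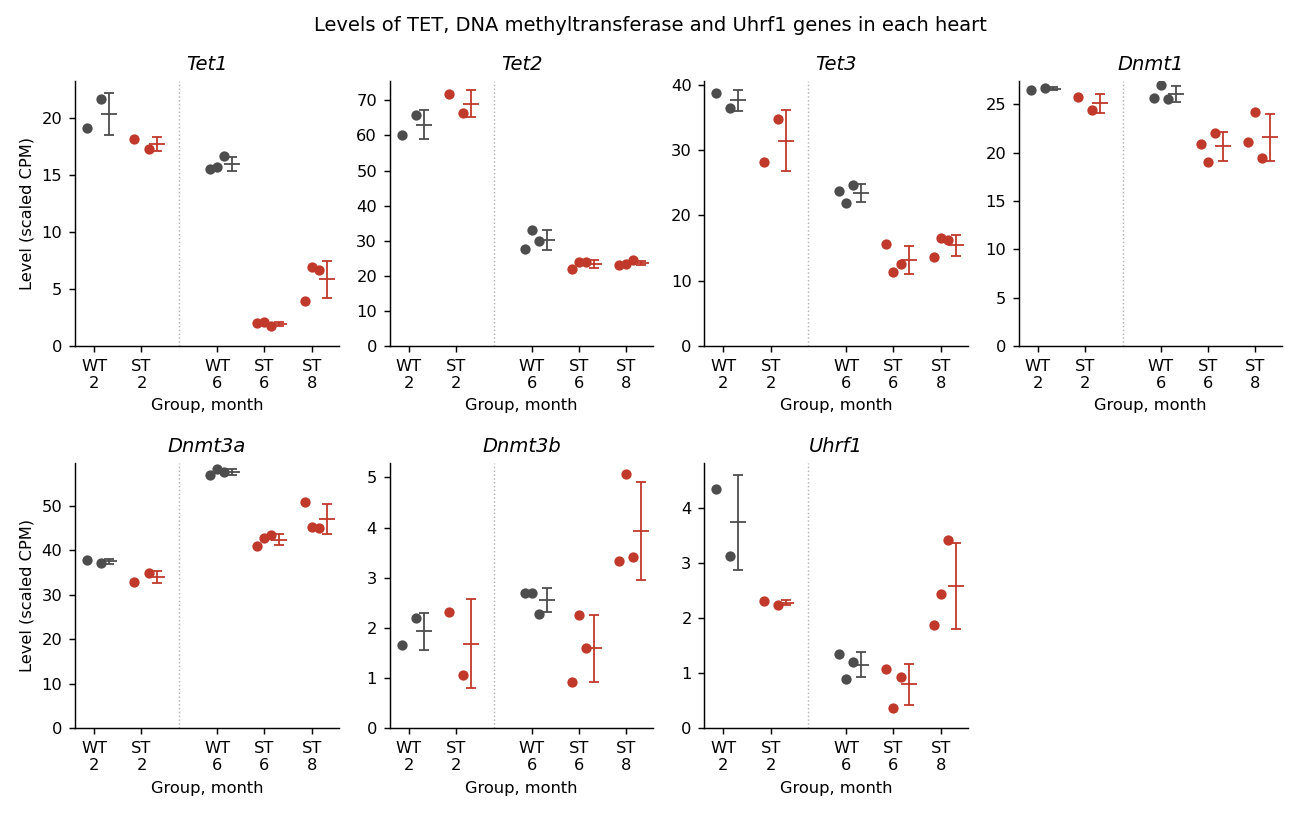
Level of each of the 7 genes in every heart (points, scaled CPM, linear axes from 0) by group and month, with mean and SD as bars and WT in grey, ST in red. The dotted line separates the 2-month table, which is scaled apart. Tet1 lies between 15.5 and 16.7 CPM in WT and between 1.73 and 2.12 CPM in ST hearts of 6 months.

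Tet1 encodes a TET enzyme with a CXXC domain that binds CG-rich DNA. At 2 months its level was 19.1 and 21.7 CPM in WT hearts and 18.2 and 17.3 CPM in ST hearts. These groups lie close together without overlapping, and the log2 fold change of -0.20 (SE 0.165) had a 95% interval from -0.55 to 0.15 (edgeR quasi-likelihood test, adjusted p = 0.571). At 6 months the 3 WT hearts were at 15.5, 15.7 and 16.7 CPM and the 3 ST hearts at 2.01, 2.12 and 1.73 CPM. Each WT library held 115 to 125 Tet1 counts, and each ST library 13 to 17. The mean was 16.0 ± 0.638 CPM in WT and 1.95 ± 0.202 CPM in ST (SD, n = 3 each), a gap that is many times the spread in either group. Tet1 was 8.22-fold lower in ST, a log2 fold change of -3.04 (SE 0.167; edgeR adjusted p = 8.4e-08), at rank 22 from the most lowered of 13253 genes tested.

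The 3 ST hearts of 8 months held Tet1 at 3.97, 6.94 and 6.64 CPM (mean 5.85 ± 1.64, SD), with replicate 1 the lowest. All 3 exceed every ST heart of 6 months, and all 3 lie below every WT heart of 6 months. Tet1 was 3.06-fold higher than in ST hearts of 6 months (log2 1.61, SE 0.277; edgeR adjusted p = 0.00057). It was 2.66-fold lower than in WT hearts of 6 months (log2 -1.41, SE 0.17; edgeR adjusted p = 1.1e-05). The order of Tet1 over the later groups was thus WT 6, ST 8, ST 6 months, with no overlap between neighbours.

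Tet2 encodes the TET enzyme that lost its CXXC domain in evolution. Its level at 6 months was 27.6, 33.2 and 29.9 CPM in WT and 22, 24.0 and 24.0 CPM in ST hearts. The groups did not overlap, and Tet2 was 1.32-fold lower in ST (log2 -0.40, SE 0.0996; edgeR adjusted p = 0.00795). The ST hearts of 8 months were at 23.2, 23.3 and 24.4 CPM. These values overlap those of ST hearts of 6 months, with a log2 difference of 0.05 and a 95% interval from -0.17 to 0.26. Against WT hearts of 6 months they were lower (log2 -0.34, SE 0.105; edgeR adjusted p = 0.0193). That call was lost with DESeq2 (adjusted p = 0.0836), without WT replicate 2 of 6 months (0.0874) and without ST replicate 1 (0.0574) or 2 (0.0638) of 8 months. At 2 months Tet2 was 60.1 and 65.9 CPM in WT and 71.8 and 66.3 CPM in ST hearts, a log2 difference of 0.13 (SE 0.131) that did not pass.

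Tet3 encodes the TET enzyme known for acting on the paternal genome in the zygote, and it is also expressed in many adult tissues. At 6 months Tet3 was 23.7, 21.9 and 24.6 CPM in WT and 15.6, 11.4 and 12.5 CPM in ST hearts. The fall was 1.81-fold (log2 -0.86, SE 0.129; edgeR adjusted p = 0.000281), with replicate 1 the highest of the ST hearts and still below all WT hearts. The ST hearts of 8 months were at 13.6, 16.5 and 16.2 CPM, overlapping ST hearts of 6 months (log2 0.27, 95% interval -0.05 to 0.59). Against WT hearts of 6 months they were 1.49-fold lower (log2 -0.58, SE 0.117, edgeR adjusted p = 0.00122), a call kept in all 14 alternatives. At 2 months Tet3 was 38.7 and 36.5 CPM in WT and 28.1 and 34.7 CPM in ST hearts (log2 -0.27, SE 0.15), which did not pass with all 4 libraries. Without ST replicate 2 of that month it did (log2 -0.43; edgeR adjusted p = 0.0374).

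The ratio of Tet1 to Tet2 or Tet3 counts within a library is free of scaling between libraries. It is given as log2 with 0.5 added to each count and with no test, because Tet1 was singled out with results known and an exact permutation test of 3 against 3 hearts cannot go below p = 0.10. The Tet1 to Tet2 ratio at 6 months was -0.83, -1.08 and -0.84 in WT hearts and -3.40, -3.46 and -3.74 in ST hearts, and at 8 months it was -2.52, -1.73 and -1.86. Every ST heart of 6 months lies below every ST heart of 8 months, which in turn lies below every WT heart. The mean difference from WT was -2.62 at 6 months and -1.12 at 8 months. For Tet1 to Tet3 the group means were -0.55 ± 0.0677 in WT, -2.70 ± 0.278 in ST of 6 months and -1.42 ± 0.285 in ST of 8 months (SD, n = 3 each). These 3 groups did not overlap either, with differences from WT of -2.15 and -0.87.

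At 2 months the Tet1 to Tet2 ratio was -1.65 and -1.60 in WT and -1.97 and -1.93 in ST hearts, a mean difference of -0.33. The Tet1 to Tet3 ratio was -1.01 and -0.75 in WT and -0.62 and -1.0 in ST hearts, which overlap, with a mean difference of 0.07. Leaving out 1 library at a time moved this last difference between -0.12 and 0.26, while the Tet1 to Tet2 difference at 6 months stayed between -2.70 and -2.51.

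**Figure D2:**
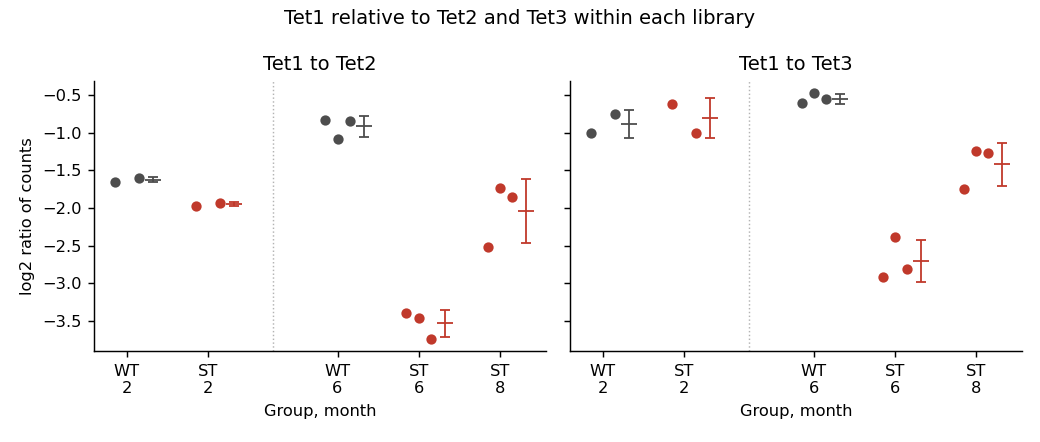
Log2 ratio of Tet1 counts to Tet2 counts (left) and to Tet3 counts (right) in every library, by group and month, with mean and SD as bars, WT in grey and ST in red. In both ratios the 3 ST hearts of 6 months lie lowest, and those of 8 months lie between them and WT hearts of 6 months.

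Dnmt1, the copying methyltransferase, was 25.6, 27.0 and 25.5 CPM in WT and 20.9, 19.0 and 22 CPM in ST hearts of 6 months. The groups were apart and the log2 fold change was -0.36 (SE 0.0982; edgeR adjusted p = 0.0121), although with DESeq2 Dnmt1 did not pass (adjusted p = 0.0616). At 8 months Dnmt1 was 21.1, 24.2 and 19.4 CPM, spread across the ST hearts of 6 months (log2 0.09, 95% interval -0.16 to 0.35). Against WT hearts of 6 months its value was -0.26 (SE 0.109, edgeR adjusted p = 0.083), which did not pass. It did without ST replicate 2 of 8 months (adjusted p = 0.0446) and with scaling by library size alone (adjusted p = 0.0342). At 2 months the 2 WT hearts were at 26.5 and 26.7 CPM and the ST hearts at 25.8 and 24.4 CPM.

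Dnmt3a, the main enzyme of new methylation in differentiated cells, was 57.0, 58.3 and 57.7 CPM in WT and 41.0, 42.7 and 43.4 CPM in ST hearts of 6 months. Its replicates lay close together, and the fall was 1.38-fold (log2 -0.46, SE 0.0736; edgeR adjusted p = 0.000416). At 8 months it was 50.9, 45.2 and 45.0 CPM, all above the ST hearts of 6 months and below WT. The step up from ST hearts of 6 months was 0.18 (log2, 95% interval -0.0008 to 0.36) and did not pass (edgeR adjusted p = 0.105), while the distance to WT hearts, -0.28 (SE 0.0815), did (adjusted p = 0.0148). The call against WT was lost with DESeq2 (adjusted p = 0.0596), without ST replicate 2 of 8 months (0.0662) and without replicate 3 (0.0659). At 2 months Dnmt3a was 37.9 and 37.2 CPM in WT and 33.0 and 35.0 CPM in ST hearts (log2 -0.15, SE 0.14).

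Dnmt3b, the second enzyme of new methylation and most active in the early embryo, had few counts. At 6 months it was 2.70, 2.70 and 2.27 CPM in WT and 0.928, 2.25 and 1.60 CPM in ST hearts. The groups barely separate, and the log2 value of -0.67 had a 95% interval from -1.36 to 0.03 (edgeR adjusted p = 0.118). Without ST replicate 2, the highest of its group, it was -1.0 (adjusted p = 0.0429). At 8 months Dnmt3b was 3.34, 5.07 and 3.41 CPM, above all hearts of 6 months. It was 2.45-fold higher than in ST hearts of 6 months (log2 1.30, SE 0.334; edgeR adjusted p = 0.0081), a call lost without ST replicate 2 of 8 months (adjusted p = 0.0577). Against WT hearts of 6 months the log2 value was 0.64 (SE 0.267), which did not pass (adjusted p = 0.0754). RefSeq lists 2 pseudogenes of Dnmt3b, 1 of them overlapping it, and 3 of Dnmt3a. None is listed in the tables, so reads of these copies may have been counted for the genes.

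Uhrf1 had few counts, and at 6 months it was kept out of the test by the filter on low counts. Its counts were 10, 7 and 9 in WT and 7, 3 and 7 in ST hearts, or 1.35, 0.901 and 1.20 CPM against 1.08, 0.375 and 0.931 CPM, which overlap. At 8 months its counts were 9, 13 and 19, or 1.88, 2.44 and 3.41 CPM, above all hearts of 6 months although these libraries are the shallowest. The rise over ST hearts of 6 months was 3.36-fold (log2 1.75, SE 0.417; edgeR adjusted p = 0.00515) and over WT hearts 2.28-fold (log2 1.19, SE 0.355; adjusted p = 0.016). The second call was lost with DESeq2 (adjusted p = 0.0788), without WT replicate 2 of 6 months (0.065) and without ST replicate 3 of 8 months (0.114). Since the WT and ST hearts of 6 months did not pass the filter together, Uhrf1 entered both fits through the hearts of 8 months, where it was high. The filter thus favoured a call of higher, and neither call is read as support for a rise. At 2 months Uhrf1 was 4.34 and 3.12 CPM in WT and 2.31 and 2.24 CPM in ST hearts (log2 -0.73, SE 0.345; edgeR adjusted p = 0.263).

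As a family, 0 of 7 genes passed at 2 months, where 4.80% of 12121 genes tested did, and 1 of 7 had an unadjusted p under 0.05 (Uhrf1), as had 2259 of all genes. The WT and ST hearts did not overlap for 6 of the 7 genes at 2 months, 1 higher and 5 lower, beside 49.0% of all genes, so such separation says little with 2 hearts against 2. At 6 months 5 of the 6 tested genes were called, all lower, where 40.0% of 13253 genes were called in either direction and 20.1% lower. Groups were apart with ST lower for 6 of the 7, beside 25.3% of all genes. The median log2 fold change of the 6 tested genes was -0.57 and that of all genes -0.0016. The family was chosen on this contrast, so nothing is read from the excess.

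Between ST hearts of 8 and 6 months 3 of 7 genes were called (Tet1, Dnmt3b and Uhrf1), all higher, where 39.6% of all genes were called and 19.1% were higher. For 4 of 7 (with Dnmt3a) the groups were apart and 8 months higher, beside 23.7% of all genes. A filter of at least 5 CPM in 3 libraries removed those 3 genes and left 0 calls among members. The median of the 7 genes was 0.27, and that of all genes 0.02. Against WT hearts of 6 months 5 of 7 were called, beside 33.9% of all genes. Tet1, Tet2, Tet3 and Dnmt3a were lower, beside 16.1% of genes, and Uhrf1 was higher, beside 17.8%. In this comparison and in ST 8 against ST 6 months, Uhrf1 passed the filter through the hearts of 8 months. Its place in these counts of calls was therefore favoured by the filter. With DESeq2 2 of the 5 calls remained, those of Tet1 and Tet3. All 7 genes were apart between these groups, as were 46.6% of all genes. The median was -0.28, and that of all genes -0.01.

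**Figure D3:**
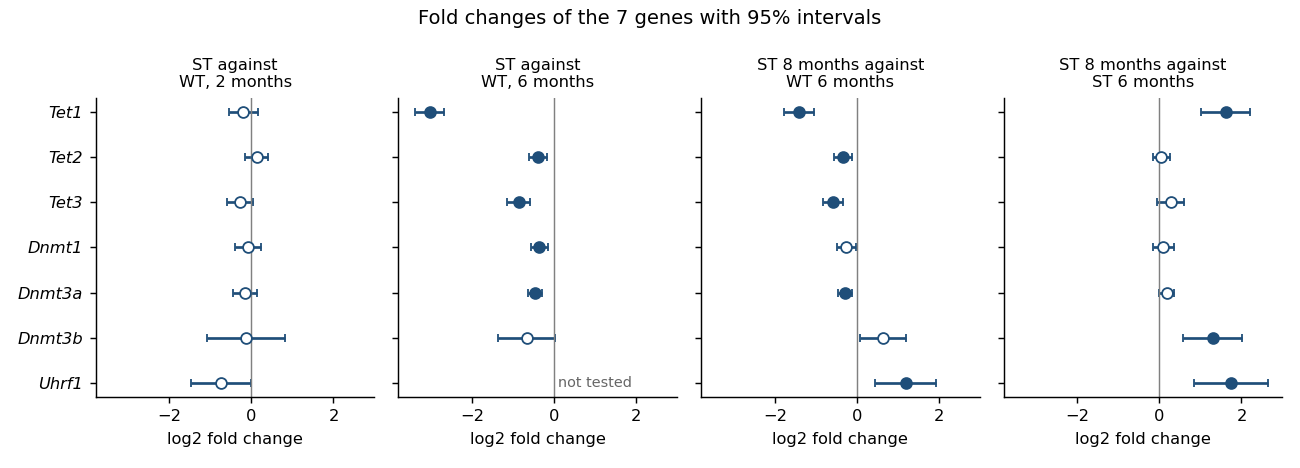
Log2 fold change of the 7 genes in 4 comparisons (horizontal axis, points) with 95% intervals as bars. Filled points passed an adjusted p of 0.05 over all genes tested and open points did not; Uhrf1 was not tested at 6 months. Tet1 lies farthest from 0 at 6 months, at -3.04, and is the only member called in each of the 3 later comparisons.

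Whether the ST effect differed between 6 and 2 months was fitted as an interaction over the 10 hearts of these months. The difference was -2.85 for Tet1 (SE 0.223), -0.54 for Tet2 (SE 0.147) and -0.59 for Tet3 (SE 0.193), with edgeR adjusted p-values of 3.03e-07, 0.0154 and 0.0359. Dnmt3a (-0.33, adjusted p = 0.0798), Dnmt1 (-0.29), Dnmt3b (-0.56) and Uhrf1 (0.15) did not pass. The family thus had 3 of 7 genes called, all lower, where 22.2% of 12658 genes were called and 12.0% were lower. Without WT replicate 1 of 2 months Tet1 alone was called, at a log2 difference between -2.94 and -2.76 over all libraries left out in turn. The call of Tet3 was also lost with DESeq2 (adjusted p = 0.0756) and without 6 other libraries in turn, with adjusted p-values from 0.0655 to 0.112.

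Scaling by library size alone moved the median log2 fold change of all genes at 6 months from -0.0016 to -0.12, and the share of called genes that were higher from 49.8% to 31.8%. It moved that share from 48.2% to 58.9% for ST 8 against ST 6 months, from 52.4% to 39.7% for ST 8 against WT 6 months, and from 46.0% to 34.7% for the interaction. The directions of the 7 genes did not change with it, but some calls were gained. Dnmt3a then passed in ST 8 against ST 6 months (edgeR adjusted p = 0.0365) and in the interaction (0.0321). Dnmt1 then passed in ST 8 against WT 6 months (0.0342).

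The genes that work beside these enzymes moved in both directions. Of 23 partners of demethylation and base excision repair, 11 were called at 6 months, 5 higher and 6 lower, beside the 40.0% of all genes called there. The median of these 23 was -0.07. Cxxc4, which encodes a CXXC protein whose gene was split from Tet2 in evolution, was 30.1, 26.4 and 29.3 CPM in WT and fell to a mean of 6.67 ± 0.965 CPM in ST hearts of 6 months (log2 -2.11, SE 0.127; edgeR adjusted p = 1.94e-07). It rose to 18.1 ± 2.06 CPM in ST hearts of 8 months (log2 1.46, SE 0.154, against ST 6 months) and stayed below WT hearts (log2 -0.64, SE 0.114). The order of its levels over the 3 later groups was that of Tet1. At 2 months, however, Cxxc4 was 15.3 ± 0.606 CPM in WT and 20.6 ± 0.792 CPM in ST hearts (SD, n = 2 each), an opposite value that did not pass (log2 0.42, adjusted p = 0.173).

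Cxxc5, a related CXXC gene, fell from 47.5 ± 7.88 to 23.6 ± 2.19 CPM at 6 months (log2 -1.02, SE 0.124) and stood at 39.5 ± 1.56 CPM in ST hearts of 8 months (log2 0.76, SE 0.0958, against ST 6 months). Mbd4, which encodes a glycosylase of G:T mismatches at CG sites, fell from 11.8 ± 0.662 to 4.67 ± 1.06 CPM (log2 -1.37, SE 0.176), and was 7.27 ± 0.55 CPM at 8 months. Gadd45g, which encodes a stress-induced protein that has been linked to demethylation, went the other way. It was 13.1, 19.1 and 15.9 CPM in WT and between 88.9 and 101 CPM in ST hearts of 6 months (log2 2.55, SE 0.118), and was 25.2 ± 2.6 CPM at 8 months, below ST hearts of 6 months (log2 -1.89, SE 0.0919) and above WT hearts (log2 0.67, SE 0.136; adjusted p = 0.00123). Its relative Gadd45a fell at 2 months, from 45.6 ± 6.00 to 25.5 ± 0.109 CPM (log2 -0.85, SE 0.148; edgeR adjusted p = 0.00238). Without WT replicate 1 of that month it did not pass (adjusted p = 0.0809). Gadd45a was the single partner of the 22 tested at 2 months that was called, beside 4.80% of all genes. It was also lower in ST at 6 months (log2 -0.55, SE 0.154; adjusted p = 0.0143). In ST hearts of 8 months it was higher than in ST (log2 1.08, SE 0.156) and WT hearts (log2 0.54, SE 0.0978) of 6 months. Tdg, which encodes the glycosylase that removes the oxidised bases made by TET enzymes and was named after its values were seen, was 0.30 higher at 6 months on the log2 scale (SE 0.101; adjusted p = 0.0339).

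Among other partners, Ogt, which encodes the O-GlcNAc transferase that binds TET proteins, fell at 6 months (log2 -0.33, SE 0.073). Idh2, one source of the 2-oxoglutarate that TET enzymes consume, rose (log2 0.33, SE 0.0588). Of the 23 partners, 5 were higher and 4 lower between ST hearts of 8 and 6 months (39.6% of all genes called), and 5 higher and 6 lower between ST hearts of 8 months and WT hearts of 6 months (33.9%). The interaction had 3 higher and 5 lower (22.2%). Cxxc4 (-2.54, SE 0.194), Cxxc5 (-0.91, SE 0.186) and Mbd4 (-1.21, SE 0.274) were among the lower and Gadd45g (2.40, SE 0.253) among the higher.

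**Figure D4:**
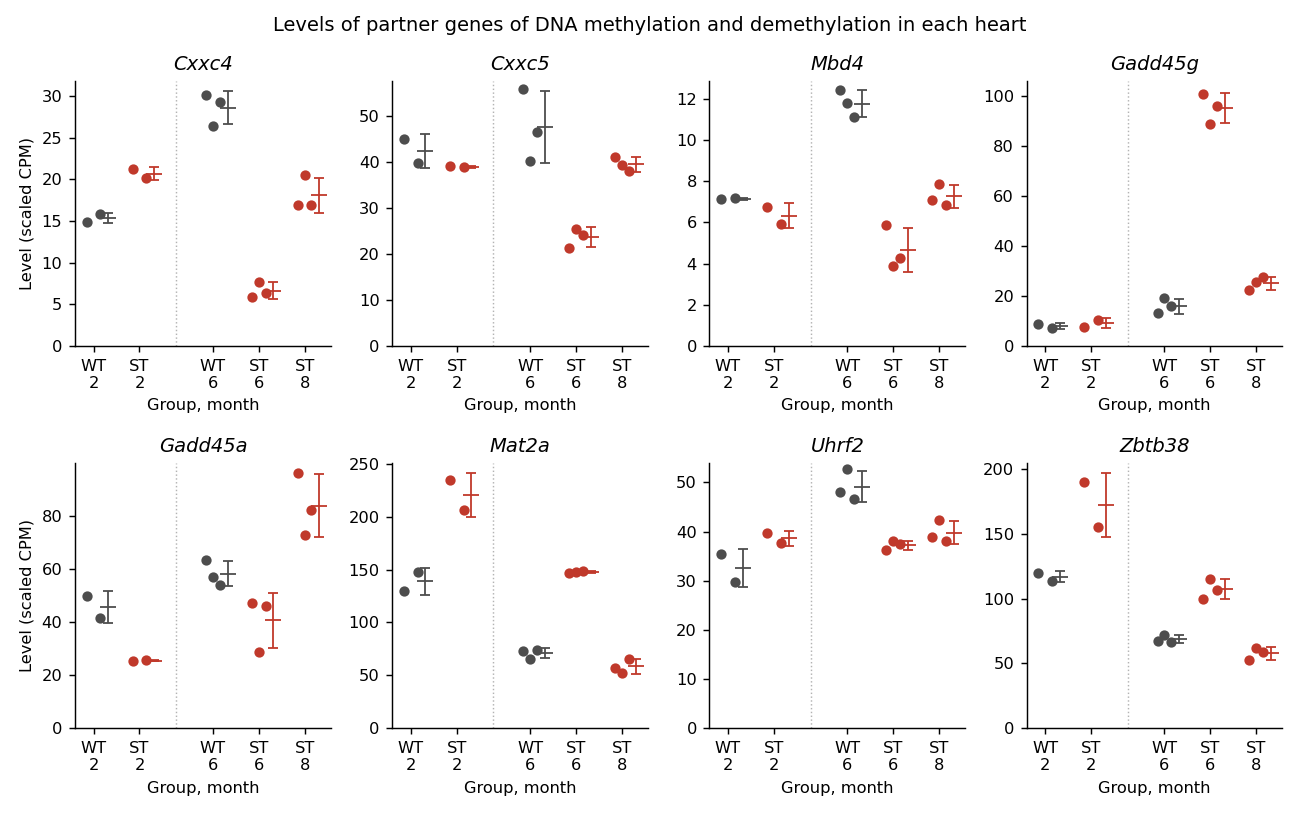
Level of 8 partner genes in every heart (points, scaled CPM, linear axes from 0) by group and month, with mean and SD as bars, WT in grey and ST in red, and the 2-month table left of the dotted line. Cxxc4 and Cxxc5 were lowest in ST hearts of 6 months and Gadd45g highest, while Mat2a and Zbtb38 were higher in ST than WT hearts at 2 and 6 months.

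The list of methyltransferase partners and methyl donor supply, 25 genes, had 2 higher and 3 lower of 21 tested at 6 months, beside 40.0% of all genes called. Mat2a, which encodes the enzyme that makes S-adenosylmethionine outside the liver, was 71.0 ± 4.86 CPM in WT and 148 ± 1.38 CPM in ST hearts of 6 months (log2 1.04, SE 0.0702). It fell to 58.4 ± 6.75 CPM in ST hearts of 8 months (log2 -1.31, SE 0.0804). At 2 months it was the 1 gene called of 22 tested, beside 4.80% of all genes, with 139 ± 13.1 CPM in WT and 221 ± 20.1 CPM in ST hearts (log2 0.66, SE 0.133), and without WT replicate 1 it did not pass (adjusted p = 0.223). Uhrf2, a relative of Uhrf1, fell at 6 months from 49.1 ± 3.14 to 37.2 ± 0.932 CPM (log2 -0.42, SE 0.0828). The list had 1 higher and 4 lower of 19 between ST hearts of 8 and 6 months (39.6% of all genes called) and 0 higher and 3 lower of 19 against WT hearts of 6 months (33.9%). In the interaction it had 2 higher and 2 lower of 22 (22.2%). Hells, whose remodelling protein works with Dnmt3b, held 19, 18 and 8 counts in all over the 3 hearts of WT 6, ST 6 and ST 8 months and was not tested at 6 months.

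Uhrf1 is a gene of S phase in dividing cells, so a list of replication and cell cycle genes was set beside it. Of 25 such genes, 16 could be tested at 2 months, and 2 were called, both lower in ST, beside 4.80% of all genes. Mki67, the proliferation marker, fell from 21.9 ± 3.36 to 9.58 ± 3.70 CPM (log2 -1.18, SE 0.223), and Top2a, topoisomerase of dividing cells, from 7.16 ± 1.52 to 3.34 ± 0.0549 CPM (log2 -1.12, SE 0.28). The call of Top2a was lost with DESeq2 (adjusted p = 0.172) and without WT replicate 1 (0.431). At 6 months 2 of 15 were higher and 4 lower, beside 40.0% of all genes called. Genes of the replicative helicase went both ways. Mcm7 (-0.59), Mcm4 (-0.79) and Mcm2 (-0.52) fell, while Mcm5 rose (log2 0.73, SE 0.224), a call lost in 5 of 13 alternatives. Aurkb, a mitotic kinase, rose from 0.483 ± 0.139 to 14.8 ± 7.51 CPM (log2 4.85, SE 0.529) and was 0.636 ± 0.0779 CPM at 8 months. At 8 months 3 were higher and 1 lower of 15 in each comparison, against ST hearts (39.6% of all genes called) and WT hearts of 6 months (33.9%). The genes differed. Against ST hearts Mcm7, Tyms and Mcm4 were higher and Aurkb lower. Against WT hearts Top2a (log2 1.667), Mki67 (1.005) and Mcm5 (0.668) were higher and Mcm2 (-0.454) lower. The calls of Top2a, Mki67 and Mcm5 against WT hearts were lost in 2, 4 and 9 of 13 alternatives, and that of Mcm2 in 2 of 14. The interaction had 5 higher and 2 lower of 19, beside 22.2% of all genes. The part of dividing cells in the level of Uhrf1 was not tested.

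Markers of the cell types in heart tissue are given beside the family, and their called counts at 6 months are to be read against the 40.0% of all genes called there. At 6 months 2 of 7 heart muscle markers were higher and 1 lower, with summed levels of 83100 to 88900 CPM in WT, 73300 to 80500 in ST and 84400 to 88800 CPM in ST hearts of 8 months. The largest term of these sums, Myh6, fell at 6 months from a mean of 53600 to 39400 CPM (log2 -0.463). Tnnt2 rose from 11300 to 13800 CPM (log2 0.272) and Actn2 from 2450 to 3210 CPM (log2 0.369). Of 7 endothelial markers 3 were higher at 6 months (sums 801 to 990 in WT, 980 to 1090 in ST, 1120 to 1180 CPM at 8 months). The 7 fibroblast markers split into 3 higher and 3 lower (sums 893 to 943, 841 to 922 and 816 to 916 CPM). Smooth muscle and pericyte markers had 4 higher and 1 lower of 7 (sums 557 to 587, 528 to 649 and 516 to 765 CPM). The largest term of these sums, Abcc9, fell at 6 months from a mean of 377 to 286 CPM. Acta2 rose from 31.3 to 76.7, Tagln from 19.3 to 50.8, Myh11 from 59.8 to 101 and Cnn1 from 0.534 to 3.95 CPM. Macrophage markers had 1 higher of 7 at 6 months and 4 lower of 7 at 8 against 6 months, where 39.6% of all genes were called (sums 96.7 to 130, 110 to 155 and 64.9 to 77.7 CPM). All 5 erythroid markers were higher at 6 months (sums 373 to 495, 672 to 758 and 370 to 784 CPM).

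Of 4 mesothelial markers 3 were tested at 6 months, 1 higher and 2 lower (sums 22 to 33.1, 29.0 to 32.2 and 21.0 to 28.4 CPM). These sums hide opposite changes. At 6 months Msln fell from a mean of 5.82 to 0.603 CPM (log2 -3.185) and Upk3b from 3.48 to 0.507 CPM (log2 -2.777). Wt1 rose from 15.4 to 28.9 CPM (log2 0.886). At 2 months 2 of 3 were higher, beside 4.80% of all genes called, with Msln at a log2 fold change of 4.52. The WT hearts of 2 months held 2 counts of Msln in all. The 3 Schwann cell markers had 1 lower (sums 15.5 to 17.2, 11.8 to 15.6 and 13.6 to 24.4 CPM). Markers of T, B and NK cells summed to at most 4.41 CPM, neutrophil markers to at most 4.49 CPM and fat cell markers to at most 7.12 CPM in the later hearts, and 0, 0 and 1 of them could be tested at 6 months. Adipoq and Plin1, of the fat cell list, were at 0 in WT hearts of 6 months and Adipoq in ST hearts. The part of these markers' changes in the levels of the 7 genes was not tested.

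Levels over the 9 libraries of 6 and 8 months were correlated with those of Tet1 for 13593 genes. Placeholder names, with prefixes such as LOC or RGD, were left out of the ranking, and some of these may follow Tet1 more closely. The 5 closest of the remaining genes were Gpr22 (Pearson r of log2 CPM 0.993), Zfp395 (0.990), Snx33 (0.990), Arhgef37 (0.989) and Pla2g5 (0.987). The points share 3 groups and 2 tables, and r is given as a description. Genes picked by r follow the group order of the gene they were matched to by selection, here and for Uhrf1 below. Gpr22, which encodes an orphan G protein-coupled receptor of heart and brain, was 89.3 ± 3.82 CPM in WT, 21.2 ± 1.13 in ST of 6 months and 42.7 ± 3.89 CPM in ST of 8 months (SD, n = 3 each). Snx33, a sorting nexin gene, was 73.9 ± 1.33, 28.2 ± 0.327 and 42.2 ± 2.78 CPM in the same groups. Both held the order of Tet1, which that selection favours and which is no separate result. Their falls at 6 months were -2.09 (SE 0.0823) and -1.41 (SE 0.0752) on the log2 scale, smaller than the -3.04 of Tet1. For Uhrf1, again without placeholder names, the closest genes were Trappc5 (r = 0.962), Cyp27a1 (0.962), Amacr (0.960), Iqcc (0.960) and Mcm10 (0.959), the last a replication factor. Trappc5, the closest of these, was 40.1 ± 2.52 CPM in WT, 35.1 ± 2.77 in ST of 6 months and 45.7 ± 4.31 CPM in ST of 8 months. Mcm10 was 31.6 ± 2.24, 25.1 ± 5.19 and 45.4 ± 2.83 CPM in the same groups. Uhrf1 itself held only 3 to 19 counts in each of these libraries.

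RefSeq places LOC100910945, a noncoding RNA gene, across the start of Tet1. It was chosen after its values were seen. Its counts at 6 months were 26, 17 and 17 in WT and 4, 7 and 8 in ST hearts, and 11, 5 and 4 in ST hearts of 8 months. At 6 months it was lower in ST like Tet1 (log2 -1.62, SE 0.353; edgeR adjusted p = 0.00348), while against WT the value at 8 months was -1.02 (adjusted p = 0.0629). Other genes overlap Tet3 (LOC102548361), Dnmt3a (LOC120103494) and Uhrf1 (Arrdc5). Whether counting used the strand is not stated in the labels, so reads of a gene and its overlapping neighbour cannot be told apart.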

How the data were processed

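Bulk RNA libraries of 13 rat hearts were used. The deposited values are expected counts per gene name, not normalized. Their counting tool was not given in the sources used here. Only mouse builds, GRCm38 and mm10, stand in the submitters' processing notes, although the names are rat. Fractional counts were rounded to whole ones before the fit. For each comparison all genes that filterByExpr kept were fitted on the libraries compared, scaled by TMM, with edgeR 4.0.16 (quasi-likelihood F test, two-sided) under R 4.3.3, and p was adjusted by Benjamini-Hochberg over all genes tested (threshold 0.05). Fold changes are on the log2 scale, and an approximate SE was taken as their size over the root of F. Intervals are 95%.

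The members and lists were chosen with earlier results of these data known. Besides the 7 members, the naming rule drew on each list (4 of pathway genes, 11 of cell type markers). It took up to 6 called genes of a list with the smallest p in a comparison. It also took the 5 genes most correlated with Tet1 and with Uhrf1 (log2 CPM, prior count 2), placeholder names such as LOC excepted. The text names a selection of these, and some genes of the lists are not reported here.

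The labels call the libraries biological replicates; p-values measure the spread between them. Replicate pairs differed beyond counting noise, so none was merged. Depth limits Dnmt3b and Uhrf1 most. Alternatives were DESeq2 1.42.0, limma-voom (limma 3.58.1), DESeq2 size factors, library size only, no filter, a filter of 5 CPM, a fit over all groups, a replicate block and leaving out each library. The procedure was tested on simulated data.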

Additional observations from a re-analysis of the deposited data

Results flagged for a closer look

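The ST effect differed between 6 and 2 months for 3 members by the interaction term of edgeR. The log2 difference (6 minus 2 months) was -2.85 for Tet1, -0.54 for Tet2 and -0.59 for Tet3, where 22.2% of all genes were called and 12.0% were lower. The call of Tet3 was lost in 8 of 17 alternatives, that of Tet2 in 1 and that of Tet1 in 0. Month and table cannot be told apart, but each effect was taken within 1 table. Tet1 was lower in ST in both months, by 0.20 on the log2 scale without a call at 2 months. For Tet2 all ST hearts were below all WT hearts at 6 months, and above them, without a call, at 2 months.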

How the results depend on the processing

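Over the 7 genes and all comparisons, 440 alternative values kept the direction and the side of the threshold, 21 lost a call, 6 gained one and 6 changed sign. No value of Tet1 was among those that changed. The sign changes were all of values that were never called. At 2 months Dnmt3b ranged from -0.84 (without ST replicate 1) to 0.04 without WT replicate 2 and 0.28 without ST replicate 2. In the interaction Uhrf1 became -0.13 without WT replicate 1 of 2 months, -0.11 without ST replicate 1 of 6 months and -0.0020 without ST replicate 3 of 6 months, with a highest value of 0.52, and Dnmt3b ranged from -0.96 to 0.16, the latter without ST replicate 1 of 2 months. The 582 genes called at 2 months became 1019 with no filter, 359 with DESeq2, 1237 with one fit over all groups, and 271 to 2013 with 1 library left out (271 without WT replicate 1, 2013 without ST replicate 2), and 0 to 1 members were then called. The filter of 5 CPM left 0 members called between ST hearts of 8 and 6 months, among 4616 genes, since Tet1, Dnmt3b and Uhrf1 did not reach 5 CPM in 3 libraries. For ST 8 against WT 6 months, 2 members were called with DESeq2, among 3197 genes, and 3 to 5 with 1 library left out, among 3521 to 4390 genes, beside 4441 with all. In the interaction 1 to 3 members and 1558 to 3197 genes were called with 1 library left out, beside 2811 with all (1558 without WT replicate 1 of 2 months). Beyond the calls, the cause was not tested. Same-numbered libraries shared deviations weakly, with correlations from 0.0039 to 0.178. Differently numbered libraries had correlations from -0.112 to 0.0668. The numbers were not taken as pairs. With the replicate block 0, 5, 3, 5 and 3 members were called in the 4 comparisons and the interaction, as without it, among 636, 5435, 5427, 4652 and 2941 genes. Listed genes with small changes, such as Mcm4 or Tyms of the replication list at 8 against 6 months, often lost their calls. Depth limits Uhrf1 (3 to 19 counts in each later library) and Dnmt3b.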

Other observations

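Readers of methylated DNA, proteins that bind methylated CG, were also measured. Of 9 reader genes, 1 was called at 6 months, where 40.0% of all genes were, and 4 between ST hearts of 8 and 6 months, all 4 lower, beside 39.6% of all genes. In ST hearts of 8 months 3 were lower than in WT hearts of 6 months, where 33.9% of all genes were called. Zbtb38, which encodes a zinc finger reader, was 68.8 ± 2.94 CPM in WT and 107 ± 7.43 CPM in ST hearts of 6 months (log2 0.62, SE 0.0739). It was 57.9 ± 4.91 CPM in ST hearts of 8 months (log2 -0.86, SE 0.0812, against ST 6 months). At 2 months it was the 1 reader called, beside 4.80% of all genes (log2 0.55, SE 0.136), a call lost without either WT replicate (adjusted p = 0.192 and 0.272) and without ST replicate 1 (0.0501). Mtr, which encodes methionine synthase of the methyl donor cycle, was lower in ST hearts of 8 months than in ST (log2 -1.07, SE 0.216) and WT hearts (log2 -0.84, SE 0.202) of 6 months.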
